A study of Mus musculus with 30 samples.

Results

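The lysosome and cathepsin genes described here are 48 of the 45317 gene symbols in the count table of this series, chosen by symbol: 10 cysteine cathepsins with legumain, 4 other lysosomal peptidases with progranulin, 7 glycosidases, 6 genes of lipid breakdown, 9 lysosomal membrane proteins, 6 genes of the V0 sector and 5 of the V1 sector of the proton pump, and the regulator *Tfeb*. The rule used no measured value, but the list was drawn up with earlier results of these data known. All 48 were in the table and passed the filter on low counts. Lysosomes are acidic compartments in which proteins, sugars and lipids taken up from outside the cell or delivered by autophagy are broken down. A proton pump of many subunits, the V-ATPase, acidifies them, the soluble hydrolases need the acid to work, and heavily glycosylated membrane proteins line the inside. Macrophages are rich in lysosomes, which digest engulfed cells and prepare peptides for presentation, and monocytes gain them as they mature into macrophages.

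Gene expression was measured by RNA-sequencing in 8 populations of monocytes and macrophages sorted from 4 mice with gliomas. All mice were C57BL6.CCR2RFP/WT, in which 1 copy of the chemokine receptor gene *Ccr2* carries a red fluorescent protein, were between 12 and 18 weeks old, and all carried GL261 glioma cells, a mouse glioma line, that expressed a membrane-anchored (palmitoylated) GFP. The tumour had grown in the striatum for about a month. No mouse without a tumour was sequenced, so every blood sample, too, came from a tumour-bearing animal. The 2 blood populations were Ly6Chigh and Ly6Clow monocytes, gated on CD45, CD115 and Ly6C (3 replicates each, from mice 22, 23 and 24). The 6 brain populations, gated on high CD11b and CD45 to leave out microglia, were glioma monocytes (F4/80 positive and high in Ly6C, 3 replicates from mice 22, 24 and 26), CCR2high macrophages and CCR2low macrophages (4 replicates each, from mice 22, 23, 24 and 26), each sorted into cells with glioma-derived GFP (GFPpos) and without it (GFPneg). A mouse number is the number in a sample's title. GFP marks cells that held membrane of the tumour line, by whatever route it arrived.

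The 28 replicates held 1553616 to 5689644 counts on genes, with a median of 2140229.5, so that 3 counts, the most that a count of 0 allows, came to between 0.6005 and 2.043 CPM (counts per 1e+06 gene counts). All 9 monocyte and macrophage marker genes, among them *Csf1r*, *Itgam* and *Mertk*, were detected in each population. The sort labels of the blood monocytes were borne out by *Ly6c2*, at 964 to 1291 CPM in Ly6Chigh and 27.83 to 273 CPM in Ly6Clow cells. The mean of *Ccr2* was 243.2 CPM in GFPneg CCR2high and 72.22 CPM in GFPneg CCR2low macrophages. No gene passed the test between these 2 gates, *Ccr2* included (smallest adjusted p of any gene 0.641, edgeR). Microglia were gated out, yet all 7 of their marker genes were detected in each brain population. A first Ly6Clow library of mouse 23 failed the study's quality rule and was replaced by the sample's second library, and the 2 libraries of GFPpos glioma monocytes of mouse 22 were summed. These are the 2 samples that have repeat libraries, and leaving both out is an alternative chosen after seeing the data.

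Promoter sequence is shown first for 4 members, because lysosomal genes are known for a short palindrome, CACGTG, that the transcription factor TFEB can bind within a longer element. *Ctsd* and *Gla* were among the members that differed most between brain and blood, *Ctsz* differed without holding the palindrome in this window, and *Lamp1* held it most often and did not pass the test. Each line gives the 250 bases before the transcription start in RefSeq (GRCm38.p6), 5′ to 3′ on the gene's own strand, with CACGTG in capitals. The windows are chr7:142387828-142388077 for *Ctsd*, chrX:134601006-134601255 for *Gla* and chr2:174439040-174439289 for *Ctsz*, all 3 on the minus strand, and chr8:13158911-13159160 on the plus strand for *Lamp1*.
Ctsd: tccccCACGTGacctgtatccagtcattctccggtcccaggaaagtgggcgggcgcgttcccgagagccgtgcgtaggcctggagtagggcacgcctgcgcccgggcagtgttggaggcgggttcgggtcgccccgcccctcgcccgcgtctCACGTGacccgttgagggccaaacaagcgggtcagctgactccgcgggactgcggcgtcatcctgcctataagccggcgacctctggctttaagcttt
Gla: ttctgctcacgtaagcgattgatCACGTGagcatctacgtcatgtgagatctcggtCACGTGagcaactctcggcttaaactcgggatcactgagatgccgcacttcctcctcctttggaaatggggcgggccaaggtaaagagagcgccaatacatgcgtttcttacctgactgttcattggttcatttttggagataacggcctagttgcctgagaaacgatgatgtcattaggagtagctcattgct
Ctsz: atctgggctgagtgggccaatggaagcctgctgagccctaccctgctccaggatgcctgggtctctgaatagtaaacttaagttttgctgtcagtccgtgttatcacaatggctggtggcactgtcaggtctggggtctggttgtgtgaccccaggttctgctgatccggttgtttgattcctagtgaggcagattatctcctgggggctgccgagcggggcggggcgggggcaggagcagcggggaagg
Lamp1: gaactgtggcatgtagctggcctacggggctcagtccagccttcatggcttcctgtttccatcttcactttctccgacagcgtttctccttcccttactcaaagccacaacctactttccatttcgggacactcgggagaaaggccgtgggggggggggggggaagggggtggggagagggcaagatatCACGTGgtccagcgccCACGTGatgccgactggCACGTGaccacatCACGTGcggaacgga

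RefSeq promoters were matched for 41 of the 48 members. The word CACGTG, which reads the same on both strands, stood between 250 bases before and 50 bases after a start site in 15 of these 41 (36.6%), against 8.09% of 27025 genes in the same table. The longer palindrome TCACGTGA, which contains it, was found in 7 members (17.1%) and 1.12% of genes. By role, CACGTG was found in 4 of 7 glycosidases, 3 of 8 cysteine cathepsins, 2 of 4 other peptidases, 3 of 8 membrane proteins, 2 of 5 V0 and 1 of 3 V1 subunit genes, 0 of 5 genes of lipid breakdown, and not for *Tfeb*. Of the members that were higher in at least 1 GFPneg brain population than in Ly6Chigh blood monocytes, as described next, 6 of the 14 with a promoter held it (42.9%), and of the other members 9 of 27 did (33.3%). Such a match is a description of the sequence and no evidence of binding in these cells.

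These genes took a large share of the RNA. Together the 48 members held 4.132% ± 0.3191 of the gene counts in Ly6Chigh blood monocytes (SD, n = 3) and 3.21% ± 0.4366 in Ly6Clow blood monocytes (n = 3). In the brain the share ran from 5.138% ± 0.4814 in GFPneg glioma monocytes (n = 3) to 6.91% ± 0.4101 in GFPpos CCR2high macrophages (n = 4), and every brain replicate lay above every blood replicate, from 4.585% up in brain and up to 4.456% in blood. Per kilobase of merged exons, which allows levels to be compared between genes, *Ctss* (cathepsin S, the protease that trims the invariant chain of MHC class II) had the highest mean over all replicates at 5340 CPM per kb. *Ctsd* (cathepsin D, the main aspartic protease) followed at 2688, *Psap* (prosaposin, the precursor of the saposins that help degrade sphingolipids) at 2387 and *Ctsz* (cathepsin Z, a carboxypeptidase) at 2122 CPM per kb. At the other end stood *Ctsk* at 2.706, *Npc1* at 3.617 and *Mcoln1* at 4.564 CPM per kb. *Ctsk* (cathepsin K, the collagenase of osteoclasts) was at 0 counts in 10 of the 28 replicates.

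The first question was which of these genes differed between cells of the glioma-bearing brain and the Ly6Chigh monocytes of the blood. Most of the listed proteases were higher in the brain. None of the 9 membrane proteins among the members passed the test in either direction, which for so few genes is near the shares of all genes that follow. Some membrane proteins outside the member list, such as *Cd63*, were higher, as given below. Of the 48 members, 14 were higher and 0 lower in GFPneg glioma monocytes than in Ly6Chigh blood monocytes (29.2% of members higher, against 11.1% of all 11566 genes tested higher and 2.68% lower). In GFPneg CCR2high macrophages 15 were higher and 1 lower (31.2% of members higher, against 12.7% of genes higher and 5.14% lower), and in GFPneg CCR2low macrophages 13 were higher and 1 lower (27.1% of members higher, against 14.1% of genes higher and 6.09% lower). All calls are by the quasi-likelihood test of edgeR, adjusted by Benjamini-Hochberg over all genes tested, at an adjusted p under 0.05, and log2 fold changes (log2FC) are given with their standard error. The median log2FC of the members was 0.37, 0.28 and 0.27 in the 3 comparisons, beside 0.12, 0.15 and 0.17 over all genes. Groups without overlap were common. For 21.6%, 21.8% and 21.1% of all genes every brain replicate was above every Ly6Chigh replicate. For 14%, 13.9% and 14.1% every brain replicate was below. Of the 48 members 19, 19 and 16 were above and 6, 2 and 3 below in this way. The 3 comparisons share the Ly6Chigh replicates, so their values are given side by side and not as separate evidence. In bulk samples, fewer cells of a type and less RNA per cell cannot be told apart.

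**Figure D1:**
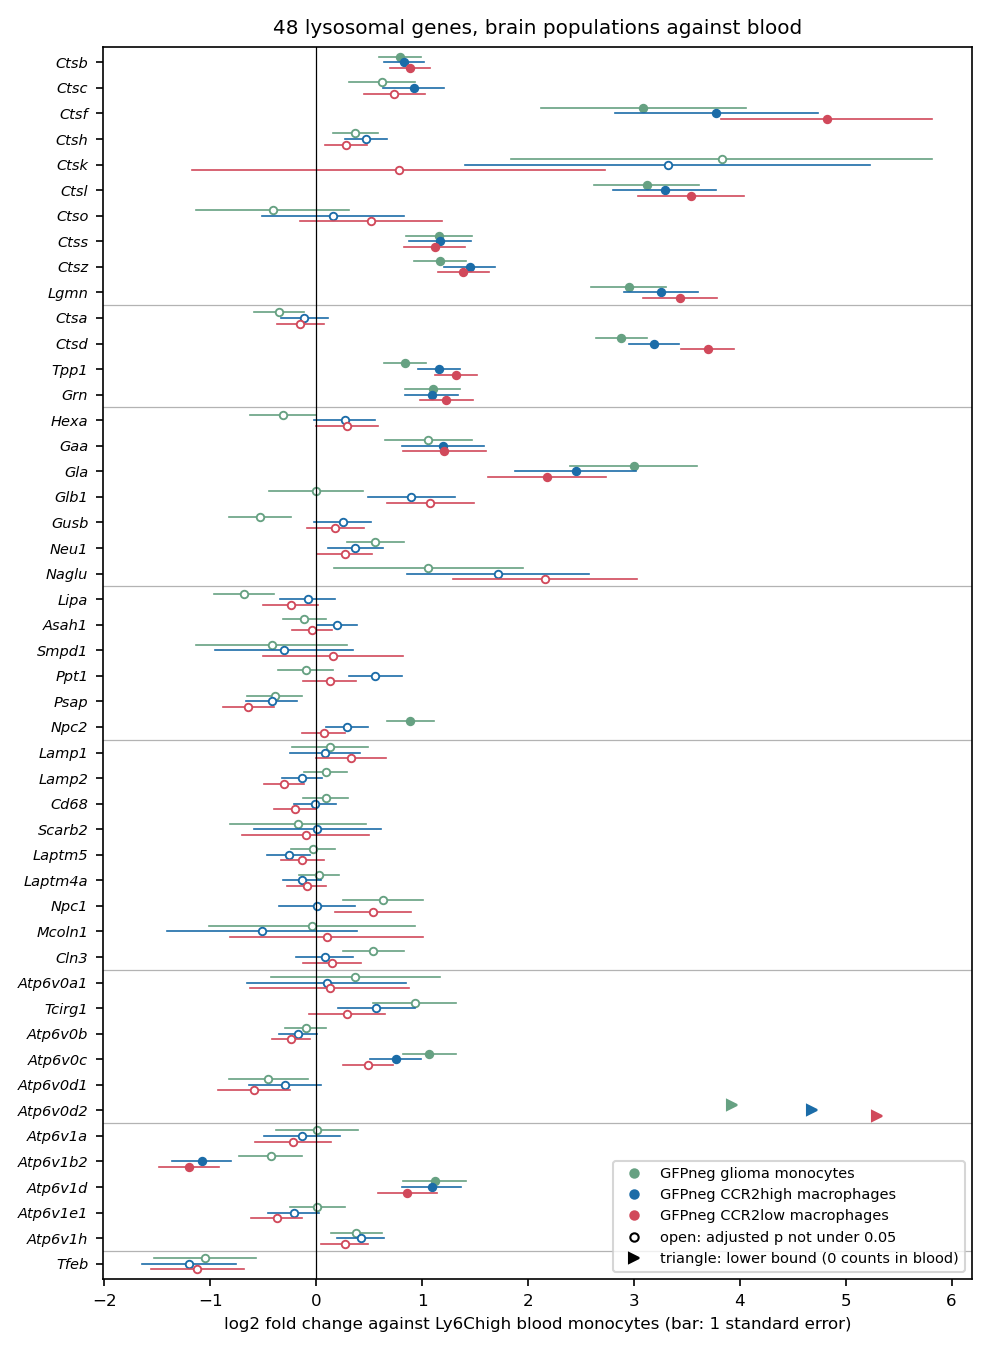
Log2 fold change of each of the 48 genes against Ly6Chigh blood monocytes in GFPneg glioma monocytes, CCR2high macrophages and CCR2low macrophages, with bars of 1 standard error, filled points at an adjusted p under 0.05 (edgeR) and grey lines between role groups. Triangles mark lower bounds for *Atp6v0d2*, which had 0 counts in Ly6Chigh blood monocytes, and cover counting error in blood only. Filled points stand to the right for cysteine cathepsins and other peptidases, while all 9 membrane proteins have open points near 0.

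Marker genes of other cell types also differed between brain and blood, in both directions. The summed level of the 7 microglial markers was 23.83 to 57.4 CPM in Ly6Chigh blood monocytes, with *Sall1* and *Siglech* at 0 in all 3 replicates, and 1156 to 7254 CPM in the GFPneg brain replicates. The 10 genes induced by tissue dissociation summed to 1395 to 1699 CPM in Ly6Chigh blood monocytes and 3966 to 15380 CPM in GFPneg brain cells, and none was at 0 throughout a population. The 7 markers of T and NK cells summed to 19.33 to 174.7 CPM against 516.8 to 1934 CPM, and the 5 of B and plasma cells in the table to 79.64 to 165.2 CPM against 184.1 to 2646 CPM, neither overlapping. Those of oligodendrocytes and astrocytes went the other way, at 311.6 to 620.4 against 54.5 to 111.9 CPM, with 4 of 6 at 0 throughout Ly6Chigh blood monocytes. Neutrophil markers overlapped (387.8 to 1435 against 23.97 to 1987 CPM), as did those of dendritic and erythroid cells. Their part in the differences between brain and blood was not tested, and location, tissue handling and gating cannot be told apart in this design.

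Among cysteine cathepsins and legumain, 6 of the 10 genes were higher in all 3 GFPneg brain populations and *Ctsc* in CCR2high macrophages alone, as counts of calls. *Lgmn* (legumain, an asparaginyl endopeptidase that also activates cathepsins) was at 165.2, 142.3 and 128.8 CPM in Ly6Chigh blood monocytes of mice 22, 23 and 24. It was at 971.7, 796.6 and 1592 CPM in GFPneg glioma monocytes of mice 22, 24 and 26, at 1438, 1387, 1074 and 1680 CPM in GFPneg CCR2high macrophages of mice 22, 23, 24 and 26, and at 1628, 1268, 1474 and 1931 CPM in GFPneg CCR2low macrophages of the same mice. The lowest brain replicate was above the highest blood replicate, and the log2FC was 2.95 ± 0.35, 3.26 ± 0.35 and 3.44 ± 0.35 (adjusted p = 1.26e-06, 1.69e-07 and 7.59e-08, edgeR). *Ctsl* (cathepsin L, an endopeptidase) was at 84.27, 78.49 and 50.59 CPM in Ly6Chigh blood monocytes. In the brain it was at 420.4, 361.9 and 1062 CPM in glioma monocytes, 625, 552.7, 502 and 1084 CPM in CCR2high macrophages and 731.7, 720.7, 789.5 and 1053 CPM in CCR2low macrophages. The groups did not overlap (log2FC 3.12 ± 0.50, 3.29 ± 0.49 and 3.54 ± 0.50, adjusted p = 7.31e-05, 2.27e-05 and 8.46e-06), and mouse 26 was highest in each.

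*Ctsf* (cathepsin F, an endopeptidase of macrophages) had the largest fitted change among the cysteine cathepsins that passed the test in the 2 macrophage populations, on low counts. It was at 2.247, 0 and 4.39 CPM in Ly6Chigh blood monocytes and at 17.56, 26.77 and 20 CPM in GFPneg glioma monocytes. In macrophages it was at 21.44, 29.48, 55.34 and 32.25 CPM (CCR2high) and at 46.8, 52.61, 136 and 51.16 CPM (CCR2low), with mouse 24 standing apart in the latter. No brain replicate overlapped a blood replicate, and the log2FC was 3.09 ± 0.97, 3.78 ± 0.96 and 4.82 ± 1.0 (adjusted p = 0.0328, 0.0061 and 0.00085). The call in glioma monocytes was lost without glioma monocytes of mouse 22, 24 or 26 (adjusted p = 0.0591, 0.0901 and 0.0665) and without Ly6Chigh blood monocytes of mouse 22 or 23 (0.112 and 0.148), all by edgeR.

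The most abundant cysteine cathepsins rose less. *Ctss* was at 3867, 4223 and 2559 CPM in Ly6Chigh blood monocytes. It was at 8613, 8135 and 7041 CPM in GFPneg glioma monocytes, 10010, 6784, 8609 and 6456 CPM in CCR2high and 9040, 5913, 8924 and 7054 CPM in CCR2low macrophages, without overlap with blood. Its log2FC was 1.16 ± 0.31, 1.17 ± 0.29 and 1.12 ± 0.29 (adjusted p = 0.0107, 0.00547 and 0.00663, edgeR), and all 3 calls were lost without Ly6Chigh blood monocytes of mouse 24, the lowest replicate (adjusted p = 0.0819, 0.0549 and 0.0615). *Ctsb* (cathepsin B, an endopeptidase and dipeptidase) was at 3927, 3851 and 2809 CPM in Ly6Chigh blood monocytes and at 6479, 4504 and 7370 CPM in GFPneg glioma monocytes. It was at 7802, 5828, 5467 and 6049 CPM in CCR2high and 7526, 5482, 5517 and 7634 CPM in CCR2low macrophages. Each brain replicate again exceeded each blood replicate (log2FC 0.79 ± 0.20, 0.83 ± 0.19 and 0.89 ± 0.19, adjusted p = 0.00777, 0.00253 and 0.00126), although the glioma monocyte call was lost without glioma monocytes of mouse 26 (0.0739) or Ly6Chigh blood monocytes of mouse 24 (0.0677). *Ctsz* was at 1348, 1430 and 1081 CPM in Ly6Chigh blood monocytes, and its lowest GFPneg brain replicate was at 2324 CPM. It rose by 1.17 ± 0.25, 1.45 ± 0.24 and 1.39 ± 0.24 on the log2 scale (adjusted p = 0.00157, 7.3e-05 and 0.000104), from a mean of 1286 ± 182.7 CPM (SD, n = 3) to 2892 ± 495.3 (n = 3), 3502 ± 701 (n = 4) and 3364 ± 530.8 CPM (n = 4).

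*Ctsc* (cathepsin C, the dipeptidase that activates granule proteases) was higher in CCR2high macrophages (5567 ± 915.2 CPM, SD, n = 4) than in Ly6Chigh blood monocytes (2933 ± 919.9 CPM, n = 3), with a log2FC of 0.92 ± 0.29 and an adjusted p of 0.0282 (edgeR). That call was lost without CCR2high macrophages of mouse 22 or 24 (adjusted p = 0.0694 and 0.0549) or Ly6Chigh blood monocytes of mouse 22 or 24 (0.0706 and 0.186). In CCR2low macrophages it did not pass (0.74 ± 0.29, adjusted p = 0.0756), but did with mouse as a block (0.83, adjusted p = 0.035), with DESeq2 size factors (0.0446), with at least 10 counts in every replicate (0.0233), by DESeq2 (0.0345) and without both samples that have repeat libraries (0.0341). *Ctsh* (cathepsin H, an aminopeptidase), *Ctso* and *Ctsk* did not pass in any of the 3 comparisons. *Ctsh* had log2FC of 0.37, 0.47 and 0.28, the second of which passed by DESeq2 (adjusted p = 0.042) and with at least 10 counts in every replicate (0.0475), and *Ctso* of -0.41, 0.16 and 0.52. *Ctsk* reached at most 11.61 CPM in GFPneg brain cells.

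**Figure D2:**
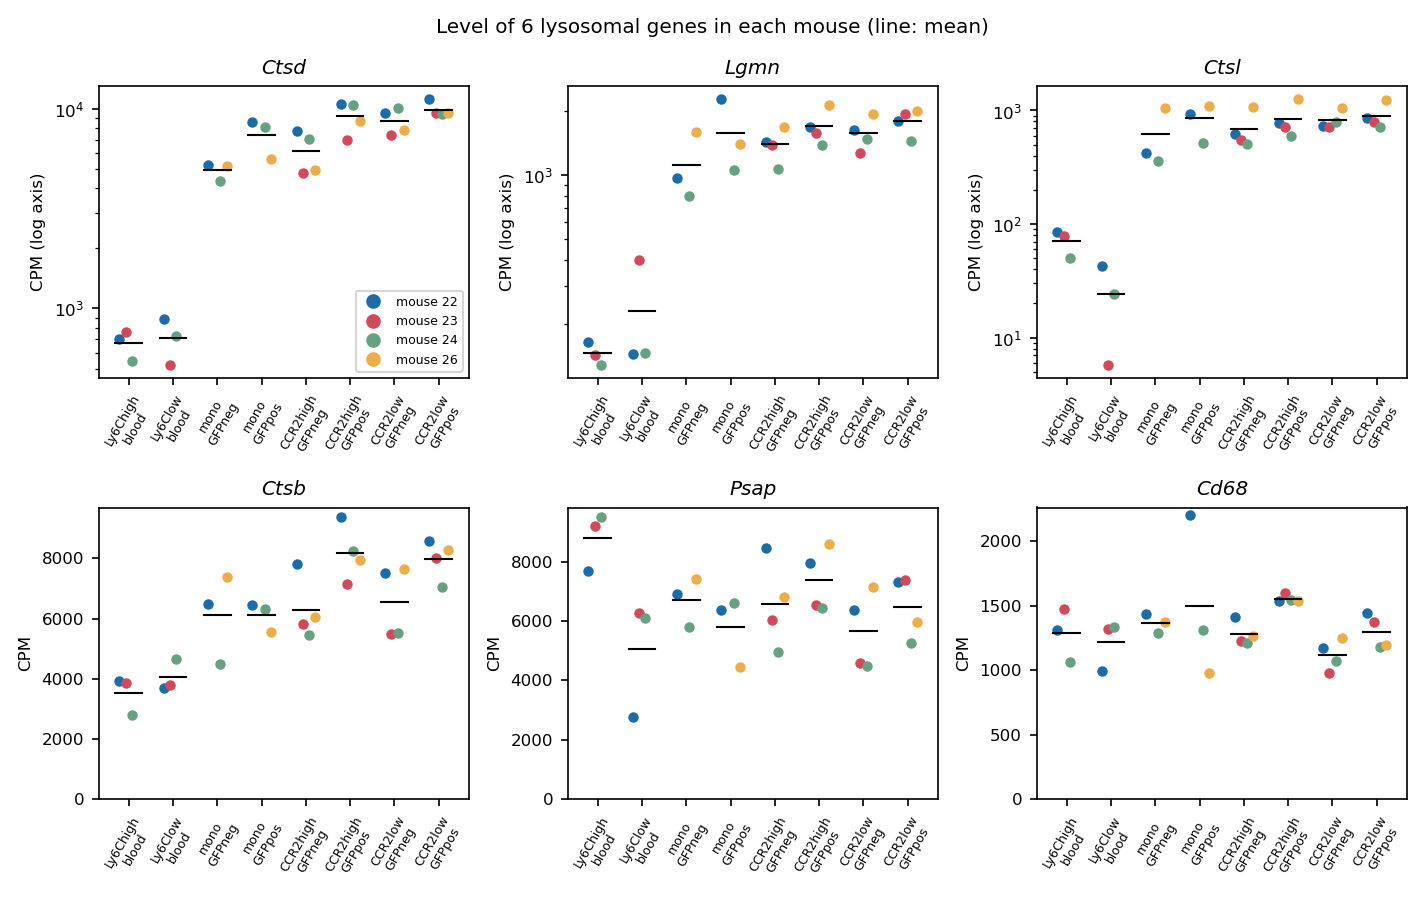
CPM of 6 members in each replicate of the 8 populations, coloured by mouse, with a line at each mean; the upper row has log axes and the lower row starts at 0. *Ctsd*, *Lgmn* and *Ctsl* are separated between blood and brain, *Ctsb* less widely, and *Psap* and *Cd68* overlap.

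*Ctsd* had the smallest adjusted p of the members in all 3 comparisons. It was at 702.2, 765 and 547.7 CPM in Ly6Chigh blood monocytes of mice 22, 23 and 24. In GFPneg glioma monocytes of mice 22, 24 and 26 it was at 5246, 4347 and 5195 CPM, in CCR2high macrophages of mice 22, 23, 24 and 26 at 7736, 4773, 7101 and 4956 CPM, and in CCR2low macrophages at 9573, 7411, 10050 and 7833 CPM. The replicate lowest in the brain was several times above the highest in blood. The fitted fold changes were 7.34, 9.15 and 13 (log2FC 2.88 ± 0.24, 3.19 ± 0.24 and 3.70 ± 0.25, adjusted p = 6.17e-09, 5.67e-10 and 6.72e-11, edgeR), and no call was lost when any single replicate was left out. *Grn* (progranulin, a lysosomal glycoprotein cut into granulins) was at 1520, 2057 and 1663 CPM in Ly6Chigh blood monocytes and at 3787, 3422 and 4022 CPM in GFPneg glioma monocytes. In macrophages it was at 4349, 3314, 2981 and 4177 CPM (CCR2high) and 4389, 3570, 3760 and 4673 CPM (CCR2low), again without overlap (log2FC 1.10 ± 0.26, 1.09 ± 0.25 and 1.23 ± 0.25, adjusted p = 0.00404, 0.00223 and 0.000615).

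*Tpp1* (tripeptidyl peptidase 1) was at 164.6, 186.3 and 175 CPM in Ly6Chigh blood monocytes. It was at 358.7, 258.1 and 322 CPM in GFPneg glioma monocytes, 439, 448.8, 268.9 and 410.8 CPM in CCR2high and 488.9, 391.4, 397.3 and 470.4 CPM in CCR2low macrophages. No brain replicate overlapped blood, and the log2FC was 0.84 ± 0.20, 1.16 ± 0.20 and 1.32 ± 0.20 (adjusted p = 0.00576, 9.66e-05 and 1.95e-05, edgeR), the first of which was lost without glioma monocytes of mouse 22 (0.0603). The 4th gene of this role, *Ctsa* (cathepsin A, the protective protein of a glycosidase complex), did not follow. Its log2FC was -0.35, -0.11 and -0.15, with adjusted p of 0.412, 0.807 and 0.722. Summed over the 4 genes, the level went from 4267 CPM in Ly6Chigh blood monocytes to 10300, 11790 and 14760 CPM, and over the 10 cysteine cathepsins and legumain from 12440 to 24370, 26710 and 26140 CPM.

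Among 7 glycosidases, *Gla* was higher in all 3 brain populations and *Gaa* in both macrophage populations. *Gla* (alpha-galactosidase A, which removes terminal galactose from glycolipids) was at 14.04, 25.19 and 17.77 CPM in Ly6Chigh blood monocytes. It was at 166, 94.76 and 194.2 CPM in GFPneg glioma monocytes, 98.39, 117.1, 50.93 and 146.1 CPM in CCR2high and 74.87, 55.21, 70.76 and 142.9 CPM in CCR2low macrophages. The groups did not overlap, and mouse 26 was the highest in each brain population (log2FC 3.0 ± 0.60, 2.45 ± 0.57 and 2.18 ± 0.56, adjusted p = 0.000884, 0.00285 and 0.0064, edgeR). *Gaa* (acid alpha-glucosidase, which degrades glycogen) was at 102.8, 106.6 and 115.4 CPM in Ly6Chigh blood monocytes and at 176.6, 148.3 and 354.2 CPM in GFPneg glioma monocytes. It was at 259.2, 250.3, 148.9 and 339 CPM in CCR2high and 242.2, 196.8, 193.8 and 369.7 CPM in CCR2low macrophages. All brain replicates were above all blood replicates. The log2FC was 1.2 ± 0.39 and 1.21 ± 0.39 in the macrophages (adjusted p = 0.0308 and 0.0273) and 1.06 ± 0.41 in glioma monocytes (0.0871, and 0.0378 in a fit of the compared populations alone).

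The *Gaa* call in CCR2high macrophages was lost in 5 of 7 fits that left out 1 replicate: CCR2high macrophages of mouse 23 or 26 (adjusted p = 0.0607 and 0.101, edgeR) and Ly6Chigh blood monocytes of mouse 22, 23 or 24 (0.121, 0.122 and 0.0834). In CCR2low macrophages it was lost without those of mouse 26 (0.104) and without Ly6Chigh blood monocytes of mouse 22, 23 or 24 (0.109, 0.108 and 0.076). *Naglu* and *Glb1* were higher without overlap in both macrophage populations and did not pass the test. Of all genes, 21.8% and 21.1% were higher without overlap in these populations. *Naglu* (N-acetyl-alpha-glucosaminidase) had a log2FC of 1.72 ± 0.86 and 2.16 ± 0.87 there (adjusted p = 0.182 and 0.0821, edgeR), and *Glb1* (beta-galactosidase) of 0.90 ± 0.41 and 1.08 ± 0.41 (0.139 and 0.067). Both passed in both populations in a fit of the compared populations alone (0.0447 and 0.0137 for *Naglu*, 0.0308 and 0.0128 for *Glb1*) and in CCR2low macrophages by DESeq2 (0.0252 and 0.0252). *Glb1* also passed in both without the samples that have repeat libraries (0.0115 and 0.00295). *Hexa* (the alpha subunit of hexosaminidase), the most abundant glycosidase of this list, was at 568, 751.5 and 712.8 CPM in Ly6Chigh blood monocytes and between 482.9 and 924 CPM in the GFPneg brain replicates, so the groups overlapped. *Gusb* (beta-glucuronidase) and *Neu1* (neuraminidase 1) did not pass either.

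Of the 6 genes of lipid breakdown, 1 passed in 1 comparison. *Npc2*, the soluble protein that hands cholesterol to the membrane transporter NPC1, was at 706.7, 1027 and 901.6 CPM in Ly6Chigh blood monocytes and at 1649, 1675 and 1544 CPM in GFPneg glioma monocytes, without overlap (log2FC 0.89 ± 0.22, adjusted p = 0.00573, edgeR, and 0.0596 without Ly6Chigh blood monocytes of mouse 22). In macrophages it was at 1182, 1055, 1037 and 1011 CPM (CCR2high) and 940.9, 886.6, 874.1 and 991.5 CPM (CCR2low), close to or within the range of blood, with log2FC of 0.29 and 0.07. *Psap*, the most abundant of these genes, was at 7702, 9210 and 9488 CPM in Ly6Chigh blood monocytes. It was at 6904, 5801 and 7419 CPM in GFPneg glioma monocytes, 8466, 6048, 4957 and 6807 CPM in CCR2high and 6375, 4587, 4484 and 7151 CPM in CCR2low macrophages. The point estimates of *Psap* were below 0 in all 3 (log2FC -0.39, -0.42 and -0.64) and none passed (adjusted p = 0.399, 0.258 and 0.0621), although the CCR2low value did in a fit of the compared populations alone (0.0434), without both samples that have repeat libraries (0.0421), with the second library alone of those samples (0.0412), without Ly6Chigh blood monocytes of mouse 22 (0.0444) and without CCR2low macrophages of mouse 26 (0.0267). *Lipa* (lysosomal acid lipase), *Asah1* (acid ceramidase), *Smpd1* (acid sphingomyelinase) and *Ppt1* (palmitoyl-protein thioesterase 1) had log2FC between -0.68 and 0.56. With mouse as a block, *Lipa* was called lower in glioma monocytes (log2FC -0.80, adjusted p = 0.0325) and *Ppt1* higher in CCR2high macrophages (0.67, adjusted p = 0.0187, and 0.0492 with at least 10 counts in every replicate).

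None of the 9 membrane proteins passed the test in any brain population. For 9 genes this is near the 11.1 to 14.1% of all genes called higher. *Laptm5* (a lysosomal membrane protein of blood cells) was at 4178, 4336 and 3513 CPM in Ly6Chigh blood monocytes, at 3328, 4794 and 3640 CPM in GFPneg glioma monocytes, at 3583, 3053, 3134 and 3617 CPM in CCR2high and at 3483, 3108, 4156 and 3931 CPM in CCR2low macrophages. *Cd68* (macrosialin, often used as a macrophage marker) was at 1310, 1478 and 1066 CPM in Ly6Chigh blood monocytes. In the brain it was at 1435, 1286 and 1377 CPM in glioma monocytes, 1410, 1224, 1210 and 1266 CPM in CCR2high and 1170, 976.2, 1069 and 1249 CPM in CCR2low macrophages. Both genes overlapped between blood and each brain population, and the log2FC of *Cd68* was 0.09 ± 0.21, -0.01 ± 0.20 and -0.20 ± 0.20. *Lamp1* and *Lamp2*, the main glycoproteins of the lysosomal membrane, had log2FC of 0.13, 0.08 and 0.33 and of 0.09, -0.13 and -0.30. *Scarb2* (the receptor that carries glucocerebrosidase to lysosomes), *Laptm4a*, *Npc1* (the cholesterol transporter), *Mcoln1* (the calcium channel TRPML1) and *Cln3* lay between -0.51 and 0.63. Summed over the 9 genes, the level was 7358 CPM in Ly6Chigh blood monocytes and 7476, 6548 and 6657 CPM in the brain populations.

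**Figure D3:**
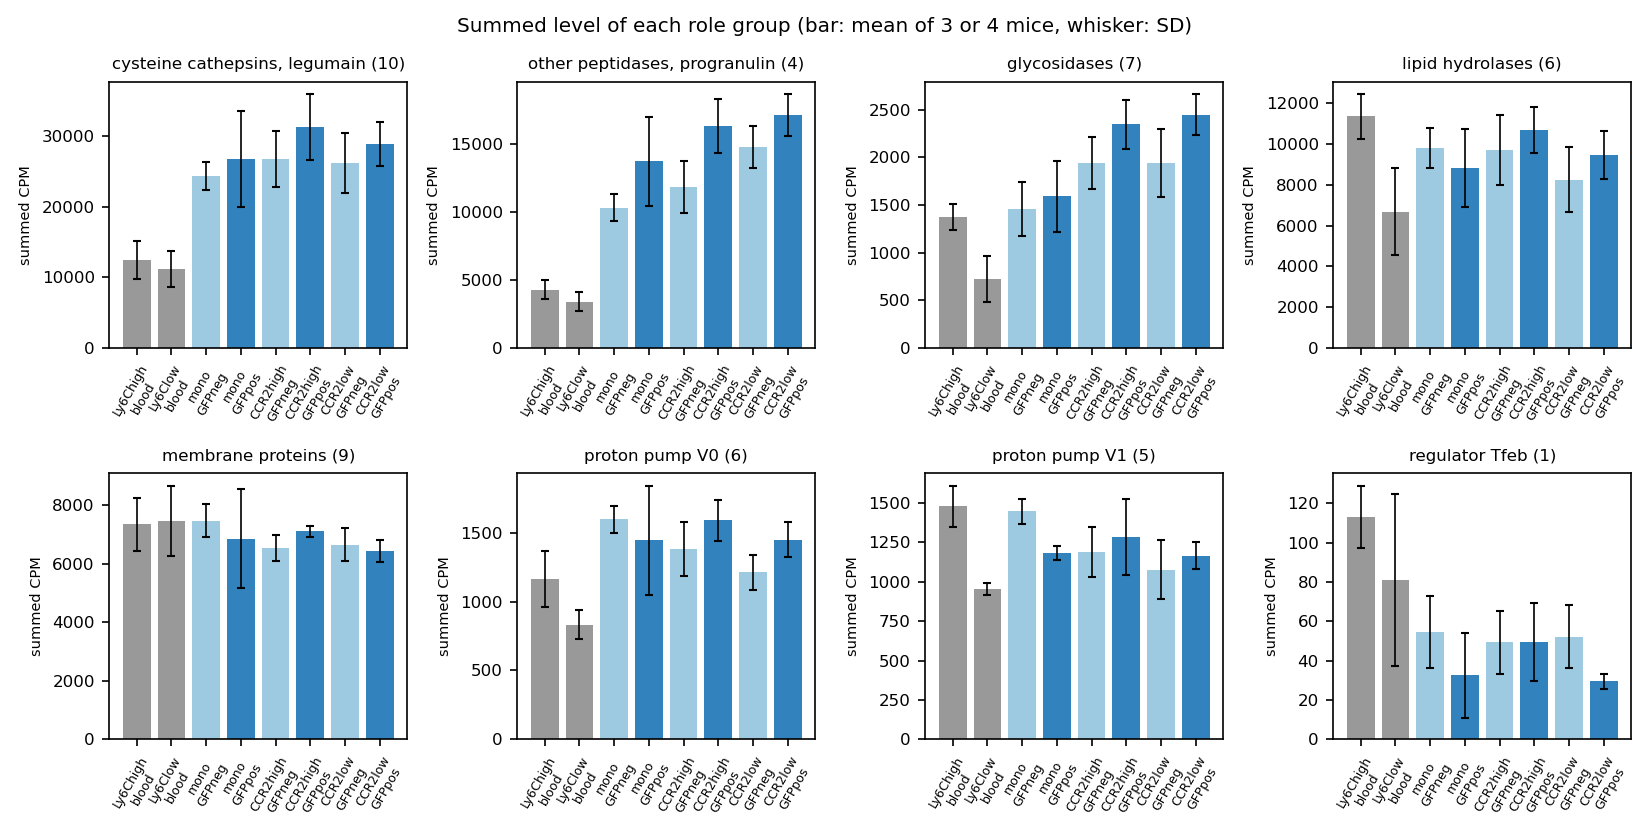
Summed CPM of the members of each role group in the 8 populations (bars: mean of 3 or 4 replicates, whiskers: SD, axes from 0; grey blood, light blue GFPneg, dark blue GFPpos; the number of genes in brackets). The sums of cysteine cathepsins and of other peptidases stand higher in the 6 brain populations than in blood, and those of membrane proteins and V1 subunits do not.

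Among the proton pump genes the calls fell on single subunits, and several of these calls were lost without 1 replicate. The shares of all genes called in the 3 comparisons were 11.1 to 14.1% higher and 2.68 to 6.09% lower. Of 6 V0 genes, whose products form the channel in the membrane, *Atp6v0d2* and *Atp6v0c* were higher in brain, and of 5 V1 genes, whose products hydrolyse ATP on the outer face, *Atp6v1d* was higher and *Atp6v1b2* lower. *Atp6v0d2*, an alternative form of the d subunit known from osteoclasts and macrophages, was at 0 counts in all 3 Ly6Chigh replicates and at 0, 0 and 0.296 CPM in Ly6Clow blood monocytes. It was at 3.01, 0 and 13.55 CPM in GFPneg glioma monocytes, 0, 11.63, 20.08 and 5.489 CPM in CCR2high and 4.404, 29.02, 10.64 and 13.18 CPM in CCR2low macrophages. CCR2low macrophages alone among these 3 did not overlap with Ly6Chigh blood monocytes. The brain means were 15.2-fold, 25.6-fold and 39.5-fold the limit of 3 counts over the Ly6Chigh population (0.363 CPM; adjusted p of the fit = 0.0203, 0.00496 and 0.00212, edgeR). That limit covers counting error in blood only and not the spread between mice in the brain. A glioma monocyte and a CCR2high macrophage replicate were themselves at 0. With next to no counts in blood, this gene passed the filter on low counts through the brain samples. The call in glioma monocytes was lost without glioma monocytes of mouse 26 (0.163) or Ly6Chigh blood monocytes of mouse 22, 23 or 24 (0.0601, 0.0637 and 0.11). Its ubiquitous counterpart *Atp6v0d1* was at 276.4, 246 and 124.4 CPM in Ly6Chigh blood monocytes and between 104.9 and 240.3 CPM in the GFPneg brain replicates, with log2FC of -0.45, -0.29 and -0.59 (none passed).

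*Atp6v0c*, the proteolipid of the proton-carrying ring, was at 302.2, 360.8 and 225.8 CPM in Ly6Chigh blood monocytes and at 666.2, 655.3 and 545.9 CPM in GFPneg glioma monocytes. It was at 583.4, 466, 441.3 and 501.3 CPM in CCR2high and 485, 376.1, 383.4 and 424 CPM in CCR2low macrophages, all above the blood replicates. The log2FC was 1.07 ± 0.25 (adjusted p = 0.00419, edgeR), 0.75 ± 0.24 (0.0281) and 0.49 ± 0.24 (0.152, and 0.0344 with at least 10 counts in every replicate or 0.0393 without both samples that have repeat libraries). The call in CCR2high macrophages was lost without those of mouse 22 or 26 (0.0651 and 0.0524) or Ly6Chigh blood monocytes of mouse 22 or 24 (0.0888 and 0.176). *Atp6v0b*, another ring subunit and the most abundant V0 gene per kilobase, was at 450.5, 453.4 and 320.9 CPM in Ly6Chigh blood monocytes and between 322.2 and 414.4 CPM in the GFPneg brain replicates. *Tcirg1* and *Atp6v0a1*, 2 forms of the a subunit, did not pass, with log2FC of 0.93, 0.57 and 0.29 and of 0.37, 0.10 and 0.13. The first value of *Tcirg1* passed in a fit of the compared populations alone (0.0211).

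*Atp6v1b2*, the nucleotide-binding B subunit, was the 1 member that was lower in brain. It was at 698.3, 729.9 and 696.3 CPM in Ly6Chigh blood monocytes, at 504.2, 554.7 and 523.3 CPM in GFPneg glioma monocytes, at 358.9, 328.3, 265.4 and 387.4 CPM in CCR2high and at 324.3, 265.4, 260.9 and 379.7 CPM in CCR2low macrophages. No brain replicate reached blood, and the log2FC was -0.43 ± 0.30 (adjusted p = 0.446, edgeR), -1.08 ± 0.28 (0.00772) and -1.2 ± 0.28 (0.00289). *Atp6v1d*, a subunit of the rotating stalk, was at 109.5, 101.3 and 71.28 CPM in Ly6Chigh blood monocytes and at 267.4, 192.2 and 151.6 CPM in GFPneg glioma monocytes. In macrophages it was at 199.9, 207.1, 221.9 and 169.2 CPM (CCR2high) and 199.3, 176.2, 156.8 and 148.7 CPM (CCR2low), without overlap (log2FC 1.12 ± 0.30, 1.09 ± 0.28 and 0.86 ± 0.28, adjusted p = 0.0117, 0.00763 and 0.031). Without Ly6Chigh blood monocytes of mouse 24 these became 0.0853, 0.0682 and 0.173. The glioma monocyte call was lost as well without glioma monocytes of mouse 22 (0.112). The CCR2low call was lost without CCR2low macrophages of mouse 22 or 23 (0.0761 and 0.0602) or Ly6Chigh blood monocytes of mouse 22 or 23 (0.0602 and 0.0909). *Atp6v1a*, the catalytic subunit, was at 303.4, 332.1 and 252.1 CPM in Ly6Chigh blood monocytes and 121.6 to 417.2 CPM in the GFPneg brain replicates, and did not pass, nor did *Atp6v1e1* and *Atp6v1h*.

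**Figure D4:**
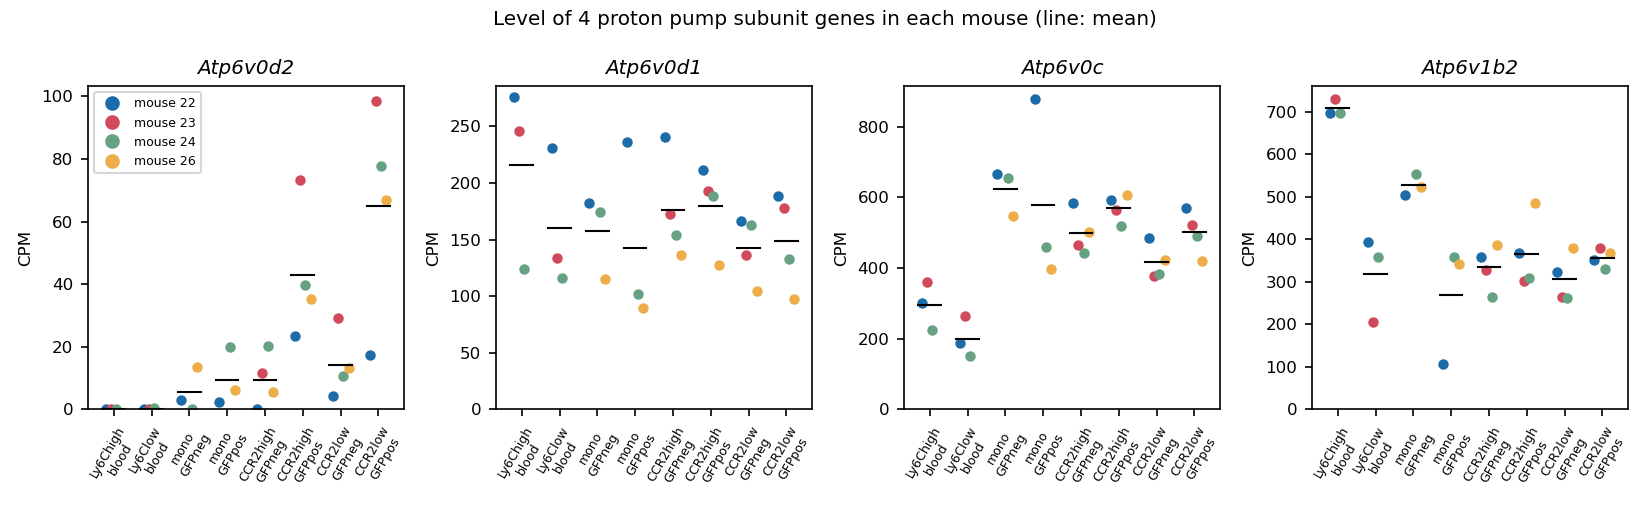
CPM of 4 proton pump genes in each replicate of the 8 populations, coloured by mouse, with a line at each mean and axes from 0. *Atp6v0d2* is at or near 0 in blood and reaches 98.42 CPM in GFPpos CCR2low macrophages, *Atp6v0c* is higher in brain than in Ly6Chigh blood monocytes, *Atp6v1b2* is lower, and *Atp6v0d1* overlaps.

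*Tfeb*, a transcription factor that raises lysosomal gene expression when it enters the nucleus, had lower levels in the brain replicates but did not pass the main test. It was at 96.63, 128.3 and 114.3 CPM in Ly6Chigh blood monocytes. In GFPneg brain cells it was at 71.74, 56.75 and 35.49 CPM in glioma monocytes, 39.1, 57.55, 67.58 and 32.93 CPM in CCR2high and 66.62, 36.1, 65.68 and 40.61 CPM in CCR2low macrophages. All 11 GFPneg brain replicates were below the 3 blood replicates. In the 3 comparisons 14%, 13.9% and 14.1% of all genes were below without overlap in the same way. The fits of *Tfeb* did not pass (log2FC -1.05 ± 0.48, -1.2 ± 0.44 and -1.12 ± 0.44, adjusted p = 0.17, 0.0618 and 0.0779, edgeR). With mouse as a block the CCR2high value passed (-1.13, adjusted p = 0.0499). All 3 passed in a fit of the compared populations alone (0.0356, 0.00969 and 0.0133) and without both samples that have repeat libraries (0.0446, 0.00896 and 0.0131), and none did under the other alternatives, such as DESeq2.

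By role, 7 of 10 cysteine cathepsins and legumain, 3 of 4 other peptidases, 2 of 7 glycosidases, 1 of 6 lipid genes, 0 of 9 membrane proteins, 2 of 6 V0 genes and 1 of 5 V1 genes were higher in at least 1 of the 3 brain populations. In all, 12 members were higher in all 3, and 31 members passed in neither direction in any of them. The matching shares of all genes over the 3 comparisons were not counted. The share higher in at least 1 is no smaller than the 14.1% of the CCR2low comparison, so 1 of 6 or 1 of 5 does not set a role apart. Scaling by the spike-in RNAs in place of TMM left the direction of each called member as it was but reduced the calls to 1, 3 and 4.

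The other genes of the pathway were taken from lists of 87 symbols, also drawn up with earlier results of these data known, and 82 of them were tested. Of these, 17 were higher and 7 lower in GFPneg glioma monocytes than in Ly6Chigh blood monocytes, 20 and 6 in CCR2high macrophages, and 21 and 5 in CCR2low macrophages. The shares of all genes called higher and lower were those given before (11.1% and 2.68%, 12.7% and 5.14%, and 14.1% and 6.09%), and 3 of 25 genes or 1 of 10 higher, as in some lists that follow, is near them. Among 34 further hydrolases and activators 6, 11 and 11 were higher and 6, 4 and 4 lower. *Acp5* (tartrate-resistant acid phosphatase) went from a mean of 37.71 CPM in Ly6Chigh blood monocytes to 295, 662.1 and 581 CPM (log2FC 2.97 ± 0.50, 4.14 ± 0.51 and 3.95 ± 0.51, adjusted p = 0.000117, 1.58e-06 and 2.25e-06, edgeR). *Ctsw* (cathepsin W, known from cytotoxic lymphocytes) went from 8.123 to 67.45, 71.59 and 76.86 CPM (log2FC 3.06, 3.15 and 3.26), alongside the T and NK cell markers given before. *Hgsnat*, an acetyltransferase of heparan sulphate breakdown, fell from 223.4 to 38.02, 33.56 and 42.88 CPM (log2FC -2.56 ± 0.65, -2.73 ± 0.59 and -2.39 ± 0.58, adjusted p = 0.00832, 0.00146 and 0.00411). *Ids* (iduronate sulphatase) fell by 1.52 ± 0.44 and 1.71 ± 0.41 on the log2 scale in glioma monocytes and CCR2high macrophages (adjusted p = 0.0215 and 0.00344), and *Lyz2* (lysozyme) by 2.05 ± 0.34 in CCR2low macrophages (7.2e-05).

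Among 25 further membrane proteins and transporters 5, 3 and 3 were higher and 1, 2 and 1 lower. *Cd63*, a tetraspanin of late endosomes and lysosomes, had the largest change, from a mean of 3.366 CPM in Ly6Chigh blood monocytes to 515.4, 930.5 and 1136 CPM (log2FC 7.35 ± 0.53, 8.21 ± 0.54 and 8.49 ± 0.55, adjusted p = 3.25e-10, 5.54e-11 and 3.15e-11, edgeR). *Tmem9* rose by 2.32 ± 0.56 on the log2 scale in CCR2high macrophages (0.00399). *Igf2r* (the mannose 6-phosphate receptor that also binds IGF2) was called higher in glioma monocytes and CCR2low macrophages, at a mean of 0.3905 CPM in Ly6Chigh blood monocytes and of 5.018 and 6.173 CPM there. *Sort1* (sortilin) fell by 2.83 ± 0.77 in CCR2high macrophages (0.0107) and *Lamtor4*, of the Ragulator complex, by 1.09 ± 0.28, 0.88 ± 0.26 and 0.88 ± 0.26 (0.00964, 0.0174 and 0.0161). Among 9 further pump subunits 2, 3 and 2 were higher and 0 lower. They included *Atp6v1c1* (log2FC 1.08 ± 0.28, 1.19 ± 0.27 and 0.96 ± 0.27, adjusted p = 0.00927, 0.00221 and 0.0107) and *Atp6v0e2*, at a mean of 0.06968 CPM in Ly6Chigh blood monocytes and 13.88, 8.587 and 11.94 CPM in brain.

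Of 8 listed inhibitors of these proteases 4 were tested, of which 3, 2 and 4 were higher and 0 lower. *Cst7* (cystatin F, an inhibitor of cathepsins inside the cell) went from a mean of 2.372 CPM to 129.9, 158.1 and 295.7 CPM (log2FC 5.67 ± 0.79, 5.95 ± 0.78 and 6.85 ± 0.80, adjusted p = 1.02e-05, 3.68e-06 and 6.45e-07, edgeR). *Cstb* (cystatin B, of the cytosol) went from 154.4 to 726.6, 440.3 and 330.3 CPM (log2FC 2.24 ± 0.32, 1.52 ± 0.30 and 1.10 ± 0.30, adjusted p = 1.82e-05, 0.000647 and 0.00903). Of 10 regulators of the MiT family and of nutrient signalling 1 was higher, *Tfec*, a relative of *Tfeb* found in macrophages, at 2.725 CPM in Ly6Chigh blood monocytes and 26.09, 14.07 and 10 CPM in brain (log2FC 3.23 ± 0.67, 2.35 ± 0.63 and 1.85 ± 0.62, adjusted p = 0.00148, 0.0101 and 0.0377).

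The next comparison was within blood. Ly6Clow monocytes, the patrolling kind, held less of several of the member hydrolases than Ly6Chigh monocytes, and no member was higher. Of the 48 members, 7 were lower (14.6%, against 1.96% of all genes tested lower) and 0 higher (3.65% of genes higher), and the median log2FC was -0.45, beside -0.02 over all genes. Of these, 3 were glycosidases, 2 were lipid genes, 1 was a cysteine cathepsin and 1 a pump subunit. Every Ly6Clow replicate was below every Ly6Chigh replicate for 16 members and 10.6% of all genes, and above for 0 members and 7.23%. *Ctsc* was at 3147, 3727 and 1925 CPM in Ly6Chigh and 647.7, 1725 and 936.1 CPM in Ly6Clow monocytes of mice 22, 23 and 24, without overlap (log2FC -1.41 ± 0.31, adjusted p = 0.00719, edgeR). *Gla* was at 10.85, 0 and 2.368 CPM in Ly6Clow monocytes, all below Ly6Chigh (-2.17 ± 0.64, 0.0441). *Gusb* was at 378.6, 436.4 and 322.3 against 177.4, 100.6 and 215.5 CPM (-1.2 ± 0.29, 0.014). *Hexa* was at 344.8, 136.1 and 474.1 CPM in Ly6Clow monocytes, also without overlap (-1.09 ± 0.31, 0.0397).

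*Asah1* was at 700.5, 848.8 and 710.9 CPM in Ly6Chigh and 384, 415.2 and 476.8 CPM in Ly6Clow monocytes (log2FC -0.82 ± 0.20, adjusted p = 0.0161, edgeR). *Npc2* was at 396.7, 693.2 and 439.8 CPM in Ly6Clow monocytes (-0.78 ± 0.22, 0.0306) and *Atp6v1b2* at 394.4, 204.7 and 358.1 CPM (-1.15 ± 0.31, 0.0262), both below every Ly6Chigh replicate. The abundant proteases did not share this direction: *Ctsd* was at 884.5, 523.6 and 725.4 CPM, *Ctss* at 3212, 6029 and 2814 CPM and *Ctsb* at 3691, 3797 and 4667 CPM in Ly6Clow monocytes, each overlapping Ly6Chigh. *Ctsl* was lower without overlap, at 42.46, 5.783 and 23.97 CPM (-1.56 ± 0.49), and did not pass (0.0572). With mouse as a block *Ctsl* (-1.62, adjusted p = 0.006), *Tcirg1* (-1.22, 0.0301) and *Atp6v0a1* (-2.59, 0.0446) passed in addition. By DESeq2, *Ctsl* (0.0205), *Tcirg1* (0.0277), *Psap* (0.0329), *Ctsh* (0.0244) and *Lamp2* (0.0498) did. Of the 82 other pathway genes, 7 were higher and 1 lower in Ly6Clow monocytes (4 of 34 further hydrolases higher and 0 lower), among them *Acp5* (126.3 against 37.71 CPM, log2FC 1.75 ± 0.48, adjusted p = 0.0293) and *Cst7* (36.08 against 2.372 CPM, 3.82 ± 0.75, 0.00284), both higher.

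This comparison rested on few libraries. Without Ly6Chigh monocytes of mouse 23 the number of members called went from 7 to 1, without those of mouse 24 to 3, and without Ly6Clow monocytes of mouse 24 to 12. Over all genes, 649 calls became 224, 277 and 2444 in the same fits. The calls of *Asah1*, *Gusb*, *Hexa*, *Gla*, *Npc2* and *Atp6v1b2* were each lost without Ly6Chigh monocytes of mouse 23 (adjusted p = 0.0602, 0.0608, 0.122, 0.136, 0.0872 and 0.0693, edgeR). *Hexa*, *Gla*, *Npc2* and *Atp6v1b2* were lost without Ly6Chigh monocytes of mouse 24 as well (0.116, 0.1, 0.0958 and 0.0733). *Gusb*, *Hexa*, *Gla* and *Atp6v1b2* were lost without Ly6Clow monocytes of mouse 23 (0.0566, 0.139, 0.0869 and 0.104), *Hexa* and *Npc2* without those of mouse 22 (0.069 and 0.0827), and *Gla* without those of mouse 24 (0.0604). The T and NK cell markers summed to 908.3 to 1500 CPM in Ly6Clow against 19.33 to 174.7 CPM in Ly6Chigh monocytes, those of B and plasma cells to 405.5 to 667.5 against 79.64 to 165.2 CPM and those of dendritic cells to 423.6 to 2269 against 102.5 to 225.8 CPM. The 9 monocyte and macrophage markers summed to 3241 to 6972 CPM in Ly6Clow and 7999 to 9502 CPM in Ly6Chigh monocytes, and mitochondrial genes took 1.208 to 2.338% against 0.5326 to 0.7193% of the counts. Their part in the result was not tested. Spike-in RNAs took up to 13.27% of the counts in Ly6Clow and up to 1.263% in Ly6Chigh monocytes. Scaled by them, the median over all genes moved from -0.02 to -1.69 and that of the members to -2.08, so that relative to all genes the members were lower under both scalings, and no member was called. Calls over all genes fell from 649 to 36 under this scaling.

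Within the brain, macrophages were compared with monocytes of the same GFP state. In GFPneg cells, 0 members passed between CCR2high macrophages and glioma monocytes (against 0% of genes higher and 0.182% lower), 1 was lower in CCR2low macrophages than in glioma monocytes (against 0.147% of genes higher and 1.06% lower), and 0 passed between the macrophage gates (0% and 0% of genes), by edgeR's quasi-likelihood test. At an unadjusted p under 0.05 the counts were 6, 8 and 1 of 48 members, beside 5.38%, 8.46% and 2.39% of all genes. DESeq2 called 0, 2 and 0, and without both samples that have repeat libraries edgeR called 1, 5 and 0. Over all genes the main test called 21, 140 and 0, DESeq2 102, 274 and 8, and edgeR without both samples 109, 333 and 1. The 1 member called by the main test was *Npc2*, with the values given before of 1649, 1675 and 1544 CPM in glioma monocytes and at most 991.5 CPM in CCR2low macrophages (log2FC -0.81 ± 0.20, adjusted p = 0.0393). Its groups did not overlap, but its call was lost when any of the 7 replicates was left out (adjusted p = 0.125, 0.179 and 0.0558 without glioma monocytes of mice 22, 24 and 26, and 0.0892, 0.132, 0.13 and 0.0586 without CCR2low macrophages of mice 22, 23, 24 and 26). *Ctsd* had every CCR2low macrophage replicate above every glioma monocyte replicate, as 6.44% of all genes did (7.36% below, as *Npc2*). The log2FC of *Ctsd* was 0.82 ± 0.22 with an adjusted p of 0.0617 (edgeR). With mouse as a block it passed (0.87, adjusted p = 0.00623), which raised the count to 2. The 5 calls without both samples that have repeat libraries were *Npc2*, *Ctsd* (0.0262), *Glb1* (0.0196) and *Hexa* (0.0339), the last 3 higher, and *Atp6v1b2* (lower, 0.00874), and the 1 in CCR2high macrophages was *Npc2* (log2FC -0.61, adjusted p = 0.0332).

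In GFPpos cells, 0 members passed between CCR2high macrophages and glioma monocytes (against 0% of genes higher and 0.0173% lower), between CCR2low macrophages and glioma monocytes (0% and 0.164%) or between the macrophage gates (0% and 0%), with 5, 5 and 0 members at an unadjusted p under 0.05 (edgeR), beside 5.82%, 6.62% and 1.48% of all genes, and 0, 0 and 0 by DESeq2. The median log2FC of the members was 0.30 and 0.17 for CCR2high and CCR2low macrophages against glioma monocytes, beside -0.07 and -0.03 over all genes. The glioma monocyte replicates with GFP were more spread than others, with a median coefficient of variation of 32.8% over the members at 20 CPM or more, against 17.1% in GFPneg glioma monocytes. Spike-in scaling moved the all-gene medians of these comparisons to 1.22 and 1.70 and those of the members to 1.67 and 2.04.

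The last question was whether cells that held glioma membrane differed in lysosomal genes from cells of the same gate that did not. No member passed the test. The counts were 0 of 48 in glioma monocytes, in CCR2high macrophages and in CCR2low macrophages, and 0 for the mean GFP difference over the 3 brain populations, in each case against 0% of all genes higher and 0% lower (edgeR), and 0 by DESeq2 in each. At an unadjusted p under 0.05 there were 4, 4, 2 and 9 members of 48, beside 6.39%, 0.597%, 1.59% and 4.1% of all genes. These tests did not use the pairing of GFPpos and GFPneg samples by mouse. With mouse as a block, 0 members passed in each as well, beside 0, 0, 0 and 3 of all genes (edgeR). In the main fit, without the block, the median log2FC of the members was 0.05, 0.17, 0.17 and 0.12, beside 0.07, 0.01, 0.02 and 0.02 over all genes. Under spike-in scaling the median for the mean difference was -0.40 for the members and -0.43 for all genes, so its sign depended on the scaling. By population it was -1.58 for the members beside -1.37 for all genes in glioma monocytes. In CCR2high macrophages it was -0.07 beside -0.27, and in CCR2low macrophages 0.46 beside 0.36. Relative to all genes the members' median was lower in glioma monocytes and higher in both macrophage populations under both scalings. The difference of the GFP effect between populations was tested as well and gave 0 members (smallest adjusted p of a member 1, and 1, 2 and 0 members at an unadjusted p under 0.05 in the 3 contrasts).

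*Ctsd* had the smallest p of the members for the mean GFP difference. In GFPpos cells it was at 8578, 8084 and 5590 CPM in glioma monocytes of mice 22, 24 and 26, at 10580, 6953, 10450 and 8713 CPM in CCR2high macrophages and at 11170, 9500, 9431 and 9505 CPM in CCR2low macrophages of mice 22, 23, 24 and 26. Set against the GFPneg values given before, GFPpos and GFPneg replicates did not overlap in glioma monocytes and did in both macrophage populations (6.66% of all genes were higher without overlap in GFPpos glioma monocytes). The log2FC was 0.59 ± 0.23, 0.58 ± 0.20 and 0.18 ± 0.20 in the 3 populations and 0.45 ± 0.12 for their mean (adjusted p = 0.586, edgeR). *Tpp1* had a mean difference of 0.34 ± 0.11 (0.667) and *Gaa* of 0.63 ± 0.21 (0.904). *Atp6v0d2* was at 23.54, 73.26, 39.77 and 35.4 CPM in GFPpos CCR2high macrophages, all above the highest GFPneg replicate of that gate (as for 0.839% of all genes). It was at 17.34, 98.42, 77.62 and 66.95 CPM in GFPpos CCR2low macrophages and at 2.243, 19.75 and 6.006 CPM in GFPpos glioma monocytes, overlapping GFPneg cells in both. The log2FC was 2.20 ± 0.91 and 2.16 ± 0.90 in the macrophages (adjusted p = 1 and 1) and 1.70 ± 0.56 for the mean (0.859).

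**Figure D5:**
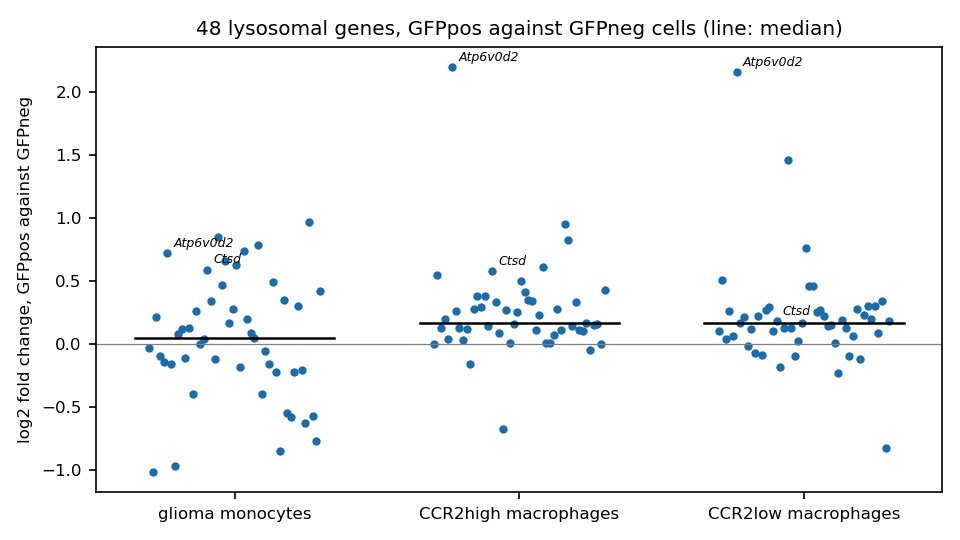
Log2 fold change between GFPpos and GFPneg cells for each of the 48 members in glioma monocytes, CCR2high macrophages and CCR2low macrophages (points spread sideways for legibility, line: median of the members). The medians are 0.05, 0.17 and 0.17, *Atp6v0d2* stands highest in both macrophage populations, and no point has an adjusted p under 0.05.

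Each GFPpos sample has a GFPneg sample of the same gate and mouse, which gives 11 pairs from 4 mice. As a description, 7 members were higher in the GFPpos sample of at least 10 of the 11 pairs (14.6%, against 1.88% of all genes tested): *Ctsd*, *Ctsl*, *Tpp1*, *Gaa*, *Glb1*, *Hexa* and *Atp6v0b*. In at least 9 pairs it was 16 members (33.3%, against 6.04% of genes). *Tfeb*, the lowest of the members in this count, was higher in the GFPpos sample of 1 of 11 pairs. At least 2 pairs were reached by 97.9% of members and 98% of all genes. Pairs of 1 mouse share an animal and levels are relative to each library's total, so these counts carry no test.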

How the data were processed

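RNA from sorted cells had been amplified with a low-input full-length kit, with ERCC spike-in RNAs added before reverse transcription, in libraries that do not mark strand. Per the study's methods, the authors aligned reads with STAR to mm10, removed duplicates with Picard 1.8.4, counted reads per Gencode gene (GRCm38.p3) with htseq-count and used DESeq2 in R 3.2.3. Removing duplicates by position can lower the counts of very abundant genes, such as the cathepsins, most. The deposited values were raw counts per gene for 30 libraries, 45317 gene symbols and 92 spike-ins. Reads without a feature (6.285 to 17.35% of the counts of a replicate) and ambiguous reads (1.578 to 1.895%) were left out of library sizes and tests.

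The 2 libraries of GFPpos glioma monocytes of mouse 22 were summed. Of the 2 libraries of Ly6Clow monocytes of mouse 23, the first, with fewer than 6000 genes at 5 or more counts, was left out, leaving 28 replicates (22 from brain, 6 from blood). Replicates within a group differed by more than counting noise (chi-square per degree of freedom 7.75 to 99 over 36 pairs). One model over all 8 populations was fitted to 11566 genes (filterByExpr, TMM, edgeR 4.0.16 quasi-likelihood test with robust estimates, limma 3.58.1, R 4.3.3), with Benjamini-Hochberg adjustment over all genes and a threshold of 0.05. CPM were per TMM-scaled library size, and levels between genes were compared per kilobase of merged exons. The standard error was the log2 fold change divided by the square root of its F. The script was tested on simulated counts. The precision of low genes was limited by depth, since 3 counts came to 0.6005 to 2.043 CPM, for counting error only.

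The number in a sample's title was taken as the mouse, since the study used 4 animals and the titles hold 4 numbers. Samples of different populations with the same number had a median correlation of their deviations from the group means of 0.136 (86 pairs, 47 over 0.1), against -0.0303 for different numbers (256 pairs). A fit with mouse as a block was an alternative, as were DESeq2 1.42.0, other size factors, spike-in scaling, other filters on low counts, only the compared populations, first libraries only, and leaving out each replicate. Leaving out both samples with repeat libraries was chosen after seeing the data.

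Members and lists were chosen with earlier results of these data known. Replicate values were given for members called in at least 1 comparison and among the 3 largest changes of their role group, and for the 2 most abundant members of each role group. Of the other pathway genes, the 2 largest called changes per list and direction were named, and others were summarised. Members that were counted in the pair description, *Ctsh*, *Naglu* and the further members given by value alone were named after their values were seen.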

Additional observations from a re-analysis of the deposited data

Results flagged for a closer look

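In the 4 populations with 4 replicates, the highest or lowest replicate of each member was set against the other 3, as the gap to the nearest of them over the whole range, with Dixon's 95% critical value as the limit. Of 192 sets, 11 passed (5.73%), where chance gives about 1 in 20. In GFPneg CCR2high macrophages, *Asah1* was at 995.3 CPM and *Atp6v0b* at 406.2 CPM in mouse 22, against 818 to 831.8 and 344.2 to 354.6 CPM in the others. In GFPneg CCR2low macrophages, *Ctsf* was at 136 CPM in mouse 24 (others 46.8 to 52.61), and in mouse 26 *Atp6v0a1* was at 109.2 CPM (others 51.67 to 60.59) and *Ctsk* at 3.692 CPM (others 0). In GFPpos CCR2high macrophages, *Cd68* was at 1601 CPM in mouse 23 (others 1533 to 1545) and *Ctsf* at 66.6 CPM in mouse 26 (others 34.03 to 38.56). In GFPpos CCR2low macrophages, *Ctsd* was at 11170 CPM in mouse 22 (others 9431 to 9505), *Ctsf* at 76.08 CPM in mouse 23 (others 57.79 to 59.97) and *Ctso* at 144.9 CPM in mouse 24 (others 62.35 to 73.23), while *Atp6v0b* was low in mouse 26 at 286.1 CPM (others 374.6 to 384.2). *Ctsf* appeared in 3 of the 4 populations, with a different mouse in each. The cause was not tested.

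The library of Ly6Clow monocytes of mouse 23 that failed the quality rule entered no comparison. The members held 2.34% of its gene counts, with 30 of 48 at 1 count or more, above the share that a count of 0 would allow (0.000275%).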

How the results depend on the processing

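Over all alternatives, the members' calls gave 852 values, of which 705 stayed called in the same direction, 147 were lost and 0 reversed. The number of members called in glioma monocytes, CCR2high and CCR2low macrophages (all GFPneg) against Ly6Chigh blood monocytes, 14, 16 and 14, fell most under spike-in scaling, to 1, 3 and 4, and with first libraries alone to 9 and 8 in the first pair. Calls over all genes fell as well, from 1596, 2060 and 2340 to 398, 523 and 591 under spike-in scaling. With first libraries alone they fell to 979 and 1282 in the first pair. The number of members called ranged over 10 to 13, 11 to 15 and 11 to 14 when 1 replicate was left out. Between Ly6Clow and Ly6Chigh blood monocytes, 7 became 0 with spike-in scaling, 0 with only the compared populations, 13 with at least 10 counts in every replicate, 12 with DESeq2 and 11 without both samples with repeat libraries, an alternative chosen after seeing the data, and ranged from 1 to 12 when 1 replicate was left out. Over all genes, 649 calls became 36 with spike-in scaling, 0 with only the compared populations and 1388 with DESeq2. They became 578 with at least 10 counts in every replicate and 589 without both samples with repeat libraries. Between GFPneg CCR2low macrophages and glioma monocytes, 1 became 0 with spike-in scaling and 2 with DESeq2, with DESeq2 size factors, with at least 10 counts in every replicate, with only the compared populations and with mouse as a block, and 5 without both samples with repeat libraries, and was 0 to 0 when 1 replicate was left out. Over all genes, 140 calls became 1 with spike-in scaling, 274 with DESeq2, 293 with only the compared populations and 284 with mouse as a block. They were 136 with DESeq2 size factors, 140 with at least 10 counts in every replicate and 333 without both samples. With no filter on low counts the number of members called stayed 1, but as *Ctsd* (log2FC 0.83, adjusted p = 0.0276, edgeR) in place of *Npc2* (0.0834). The causes were not tested. With mouse as a replicate block the counts were 15, 18, 15, 10 and 2 in these 5 comparisons, with all calls kept, and the 8 calls it added are given beside their genes. Over all genes the block gave 1861, 2451, 2671, 922 and 284 calls. Between GFPneg CCR2high macrophages and glioma monocytes 0 members became 1 without both samples with repeat libraries (21 became 109 over all genes), and in the other comparisons without a called member the count of members stayed 0 under every alternative run. The spread between 3 or 4 mice, and 3 counts at 0.6005 CPM or more, limit what could be seen for *Ctsk*, *Ctsf* and *Atp6v0d2*.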

Other observations

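Within the brain, some members were ordered by mouse in the same way in every population. Mouse 22 had the highest CPM in all 6 brain populations for 8 members: *Ctsc*, *Ctss*, *Lipa*, *Asah1*, *Ppt1*, *Atp6v0b*, *Atp6v0d1* and *Atp6v1h*. Mouse 26 was highest in all 6 for 3 members, *Ctsl*, *Gla* and *Atp6v1a*, and lowest in all 6 for 2, *Atp6v0b* and *Atp6v0d1*. *Ctsc* and *Ctss* are cathepsins of antigen presentation and granule processing, *Lipa*, *Asah1* and *Ppt1* act on lipids. Mouse 23 gave 4 of the 6 populations. The matching shares of all genes were not counted, so these orders do not set the members apart from other genes. They were found by looking and carry no test, and mouse cannot be told apart from the handling of each animal's samples.

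Within single mice, the median log2 difference of the members between GFPpos and GFPneg cells was 0.14, 0.17, 0.27 and 0.19 in CCR2high macrophages of mice 22, 23, 24 and 26, with 38, 33, 41 and 36 of 48 members above 0. In glioma monocytes of mice 22, 24 and 26 it was 0.01, 0.16 and -0.26, with 24, 28 and 15 members above 0. In CCR2low macrophages of mice 22, 23, 24 and 26 it was 0.17, 0.43, 0.23 and -0.05, with 35, 38, 34 and 20 members above 0. The median over all genes lay between -0.04 and 0.05 in these 11 pairs.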
